A study of Mus musculus with 2 samples.

Results

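The small leucine-rich proteoglycans described here are 8 genes, Dcn, Bgn, Aspn, Fmod, Lum, Omd, Prelp and Ogn, out of 28781 gene names on the array. They were taken by the gene name that the array files give to each non-control probe, which found 11 probes among 41168. The family was chosen by measured values, the large difference of Dcn between these arrays, so its values are a description and no test was made on them. Each group was 1 array of total RNA from N31 mouse neural progenitor cells of strain 129/Ola, a line made from induced pluripotent stem cells whose reprogramming factors Klf4, c-Myc, Sox2 and Oct3/4 are under doxycycline control. The Pax6 group overexpressed the transcription factor Pax6 and the EGFP group a green fluorescent protein, each from a CAG promoter construct introduced with the Tol2 transposon. Both groups were sampled 24 h after doxycycline. By the series' design text, the EGFP line had changed its shape visibly by then and the Pax6 line had not, and the comparison bears on the mesenchymal to epithelial transition during reprogramming. Both groups come from 1 parental line, and the labels do not say whether each is a clone or a pool of transfected cells.

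Small leucine-rich proteoglycans are secreted proteins with a curved core of leucine-rich repeats, to which many members attach chains of chondroitin, dermatan or keratan sulfate. They bind collagen and control how fibrils assemble, and several also bind growth factors and cell surface receptors. Connective tissue cells are their best known source, and in the brain they are known mainly from meninges, vessel walls and scars. In the mouse genome most members lie in small clusters. Dcn, Lum, Kera and Epyc are neighbours on chromosome 10, Ecm2, Aspn, Omd and Ogn on chromosome 13, and Optc, Prelp and Fmod on chromosome 1, by the gene order of RefSeq's GRCm38.p6 annotation.

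The Pax6 array had 29163 spots well above background and the EGFP array 28047, or 67.2% and 64.7% of 43379 without controls, and 0 were saturated. With 1 array per group no p-value is given, and the errors after ± are the scanner software's measurement error, which leaves out any spread between cultures. Precision is limited by having only these 2 arrays. Differences are log2 values, Pax6 minus EGFP, after each array was divided by its 75th percentile signal. A gene seen on 1 array only has a lower bound, written "at least", against its own dim signal on the other array or the lowest detected signal there, whichever is higher. Over all 19243 genes seen on at least 1 array the median difference was -0.01. Pax6 itself differed by 0.35 ± 0.20 and 0.26 ± 0.20 with 2 probes, and 1 more probe was seen on the Pax6 array only. No source used here says whether these probes lie in the transgene, so the overexpression and the labels stay unchecked. Of 12 neural progenitor markers, 11 were well above background on both arrays and Olig2 on neither.

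Omd, Ogn and Kera, seen on the Pax6 array alone, are shown by sequence. For them and for Aspn, a neighbour of Omd and Ogn, the 250 bases before the start of the gene are shown. They come from RefSeq's promoter table (GRCm38.p6), which held 6 of the 8 members and lacked Dcn and Lum. Lum, also seen on the Pax6 array alone, is thus not shown. The probe named Aspn detected nothing above background, but another probe described as asporin did. Bases in capitals mark TATAAA, the only one of 5 searched motifs that was present in these 4 windows. All 4 lie on the plus strand. The windows are chr13:49582212-49582461 for Omd, chr13:49607765-49608014 for Ogn, chr10:97606955-97607204 for Kera and chr13:49544193-49544442 for Aspn.
Omd: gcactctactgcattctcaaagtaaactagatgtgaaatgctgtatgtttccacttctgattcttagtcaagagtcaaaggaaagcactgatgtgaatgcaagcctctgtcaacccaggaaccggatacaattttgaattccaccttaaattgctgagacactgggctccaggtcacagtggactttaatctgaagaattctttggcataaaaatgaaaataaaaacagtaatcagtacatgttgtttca
Ogn: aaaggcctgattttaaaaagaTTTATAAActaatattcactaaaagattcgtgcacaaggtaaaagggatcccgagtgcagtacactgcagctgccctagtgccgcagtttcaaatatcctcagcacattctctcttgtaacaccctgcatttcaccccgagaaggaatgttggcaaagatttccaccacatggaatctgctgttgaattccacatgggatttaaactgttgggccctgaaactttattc
Kera: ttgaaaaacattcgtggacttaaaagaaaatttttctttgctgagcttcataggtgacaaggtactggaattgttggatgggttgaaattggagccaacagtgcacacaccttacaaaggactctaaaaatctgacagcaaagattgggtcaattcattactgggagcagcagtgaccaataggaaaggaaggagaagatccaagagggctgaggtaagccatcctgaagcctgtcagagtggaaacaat
Aspn: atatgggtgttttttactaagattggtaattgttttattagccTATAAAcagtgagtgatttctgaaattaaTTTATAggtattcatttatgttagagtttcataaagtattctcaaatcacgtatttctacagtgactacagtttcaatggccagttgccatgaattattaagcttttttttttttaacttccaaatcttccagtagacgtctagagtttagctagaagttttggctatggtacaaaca

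The motifs were searched on both strands, and N stands for any base. Of 32851 RefSeq windows of the same length, 12.4% held TATAAA (the TATA box), 32.7% GGGCGG (the GC box), 6.75% TGANTCA (the AP-1 motif), 1.03% TTCACGC (a core of the site bound by the Pax6 paired domain) and 4.84% TAATTA (a homeodomain core). Counted backwards from the base before the gene's start, the TATAAA matches of Ogn began at -229 and -227, overlapping on opposite strands. Those of Aspn began at -207 and -178. The windows of Omd and Kera held none of the 5. A match or its absence describes only the letters of these windows.

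Decorin differed most among the members measured on both arrays. Dcn encodes a proteoglycan with a chondroitin or dermatan sulfate chain that binds collagen fibrils, TGF-beta and the receptors of EGF and HGF. Its probe for NM_007833 (chromosome 10, 97080086 to 97080145, mm7) gave 1644 ± 164 units of signal on the Pax6 array and 184 ± 18.6 on the EGFP array. The difference was 2.95 ± 0.21, or 7.71-fold higher on the Pax6 array, and 14.3 times its measurement error. Among 17831 genes measured on both arrays this was the 14th highest difference, and 0.0785% of them had one at least as high. Among the 1664 other genes within 0.5 log2 units of its mean level, the median absolute difference was 0.18. In bulk RNA, fewer cells that express a gene and less RNA per cell cannot be told apart.

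A second probe named Dcn gave no level. It carries the cDNA accession AK052759 and lies on chromosome 10 at 97043200 to 97043259 (mm7), at a lower coordinate than the other probe. It was dim on both arrays, that is not well above background, at 6.74 ± 2.24 on the Pax6 array and 2.38 ± 2.38 on the EGFP array. When the values of both probes were averaged, the difference of Dcn was 2.12.

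Of the other class I members, Bgn did not share the difference of Dcn, and the probe named Aspn gave no level. Bgn encodes biglycan, the closest relative of decorin, which carries chondroitin or dermatan sulfate and can activate the receptors Tlr2 and Tlr4. Its brightest probe (chromosome X, 68879864 to 68879923, mm7) read 1127 ± 113 on the Pax6 array and 1468 ± 147 on the EGFP array. The difference of -0.60 ± 0.20 is 1.51-fold lower on the Pax6 array, within 2-fold. Of 1906 other genes of similar level, 6.77% had an absolute difference at least as large. A dimmer probe for BC057185 (chromosome X, 68878335 to 68878394, mm7) read 16.7 and 17.9 and differed by -0.31 ± 0.34. Both Bgn probes thus lay on the same side, and the dimmer one within its error.

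Aspn encodes asporin, a class I protein with a run of aspartates and no glycosaminoglycan chain, known for binding TGF-beta. Its probe for NM_025711 (chromosome 13, 49050987 to 49051046, mm7) was not well above background on either array, with 2.72 ± 2.71 on the Pax6 array and 3.04 ± 3.03 on the EGFP array. A probe named only AK042419, which the array file describes as an asporin product, lies within chromosome 13, 49028627 to 49028686 (mm7). The member rule did not take it. It was well above background on both arrays at 25.1 and 28.7 and differed by -0.41 ± 0.26, so it showed no higher signal on the Pax6 array either.

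**Figure D1:**
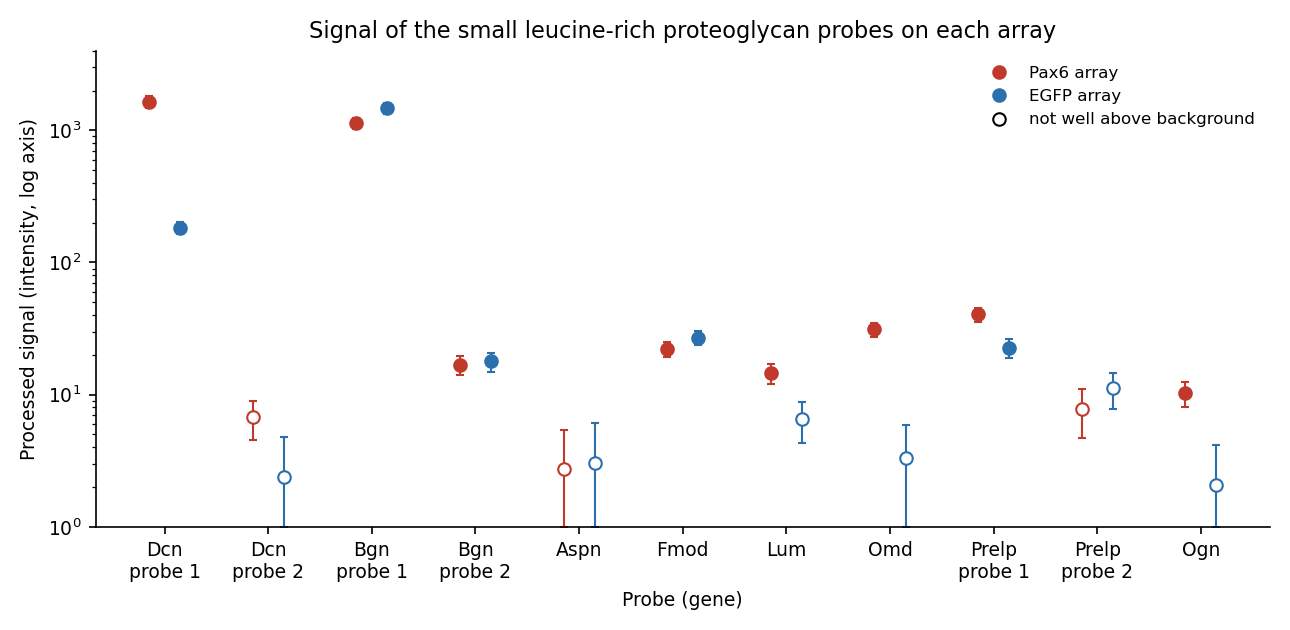
Processed signal (intensity, log axis) of the 11 probes of the 8 genes on the Pax6 array (red, left) and the EGFP array (blue, right). Bars are the measurement error, drawn no lower than 1, and open circles were not well above background; only the first Dcn probe, at 1644 and 184, separates widely while bright on both arrays.

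Fmod and Prelp belong to class II, whose members carry keratan sulfate or, as Prelp, none. Both had low signals of at most 40.5, and they differed in direction. Fmod encodes fibromodulin, a regulator of collagen fibril thickness in tendon. Its probe (chromosome 1, 133937206 to 133937265, mm7) read 22.2 ± 2.94 on the Pax6 array and 27.0 ± 3.40 on the EGFP array, a difference of -0.50 ± 0.26. Prelp encodes a protein that links basement membranes to collagen, and its brighter probe (chromosome 1, 133800142 to 133800201, mm7) read 40.5 ± 4.96 and 22.6 ± 3.82. The Prelp difference was 0.63 ± 0.30, or 1.54-fold higher on the Pax6 array. Differences of this size are common at such levels. Of 1756 genes near the level of Fmod 30.7% differed at least as much, and of 1721 near that of Prelp 20.0% did. The second Prelp probe was dim on both arrays, at 7.83 ± 3.12 on the Pax6 array and 11.3 ± 3.45 on the EGFP array, with the opposite order, and the mean over both probes was -0.06.

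Omd, Lum and Ogn were detected on the Pax6 array only. Omd encodes osteomodulin, a keratan sulfate proteoglycan of bone matrix. Its probe (chromosome 13, 49076355 to 49076414, mm7) read 31.3 ± 3.83 on the Pax6 array and 3.31 ± 2.54 on the EGFP array. The Pax6 array thus held at least 2.61 times the EGFP signal of Omd, a log2 bound of 1.38. With normexp background correction, which adds an offset to every spot, Omd differed by 0.46 and no longer reached 2-fold.

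Lum encodes lumican, the keratan sulfate proteoglycan that keeps corneal fibrils evenly spaced. Its probe (chromosome 10, 97135063 to 97135122, mm7) read 14.5 ± 2.44 on the Pax6 array and 6.51 ± 2.22 on the EGFP array, so that the Pax6 signal was at least 1.21-fold higher. Ogn encodes osteoglycin, also called mimecan, a class III member of bone and cornea. Its probe (chromosome 13, 49108057 to 49108116, mm7) read 10.2 ± 2.20 and 2.09 ± 2.08. Ogn was detected on the Pax6 array only, but its signal there lies under the detection limit of the EGFP array (10.3), so no fold is given.

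Between Pax6 and EGFP, 4.78% of the 19243 genes differed by at least 2-fold, with 2.35% higher and 2.43% lower in Pax6. Of the 8 members, 7 were detected on 1 array or both. Dcn and Omd were at least 2-fold higher, 0 were at least 2-fold lower, and the other 5 were within 2-fold, of which Lum and Ogn set no upper limit. The count of 2 includes Dcn, for which the family was chosen, and so nothing is read from it. Omd, Lum and Ogn entered through the Pax6 array alone, as 5.57% of all genes did, and by that route could only be higher there. The EGFP array alone detected 1.77% of all genes and 0 members. The median difference of the 7 genes was 0.28, and that of the 4 measured on both arrays 0.06, against -0.01 over all genes.

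**Figure D2:**
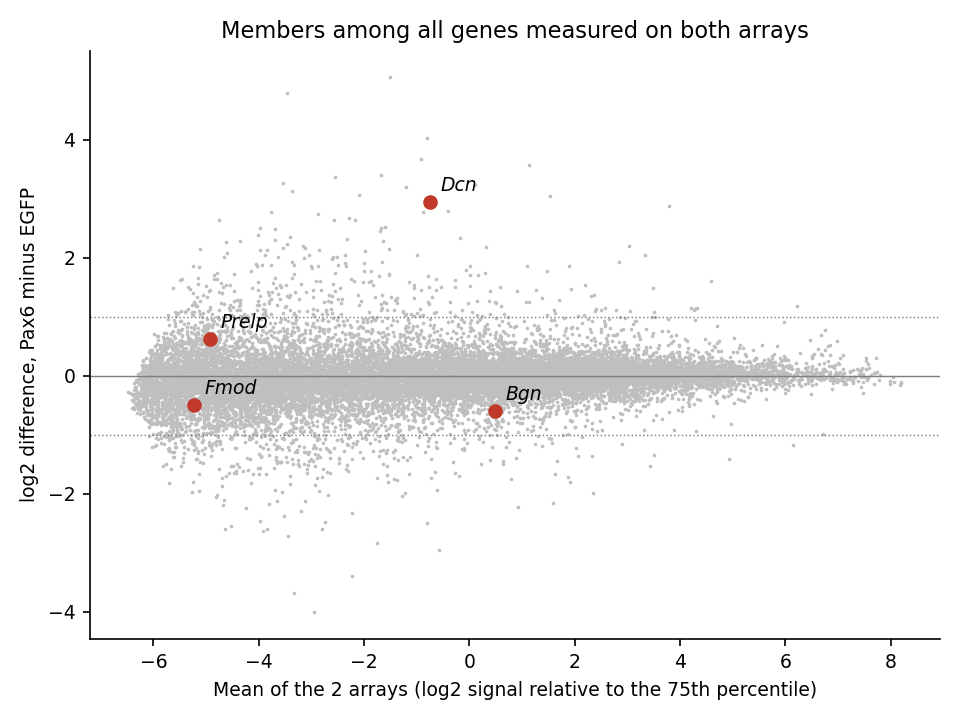
Difference (log2, Pax6 minus EGFP) against mean level (log2, relative to each array's 75th percentile) for 17831 genes measured on both arrays (grey), with the 4 members measured on both in red. Dotted lines mark 2-fold; Dcn lies at 2.95, while Bgn, Fmod and Prelp lie inside the lines.

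The 9 family genes outside the member list held 1 more large difference, that of Kera. Kera encodes keratocan, a class II keratan sulfate proteoglycan best known from the cornea, and its gene is the neighbour of Lum. Its probe (chromosome 10, 97176083 to 97176142, mm7) read 131 ± 13.3 on the Pax6 array and 11.0 ± 2.75 on the EGFP array, where it was not well above background. Against that dim EGFP signal, which lies above the detection limit of 10.3, the Kera signal of the Pax6 array was higher by at least 10.3-fold, a log2 bound of 3.36. With normexp background correction its difference was 1.39, or 2.63-fold, so the size depends on how background is treated. Kera stayed above 2-fold with this other treatment, but has no value where detection on both arrays is required. Of all genes, 0.463% were higher by 4-fold or more.

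Of the other family genes, 3 were measured on both arrays and were within 2-fold. Podnl1, which encodes a podocan-like protein, differed by 0.36 ± 0.23. Chad, the gene of the cartilage protein chondroadherin, differed by 0.16 ± 0.37. Tsku, the gene of tsukushi, a secreted regulator of developmental signals, differed by -0.05 ± 0.21, and by 0.04 after scaling by the median. Ecm2, Epyc, Optc, Nyx and Podn were dim on both arrays.

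**Figure D3:**
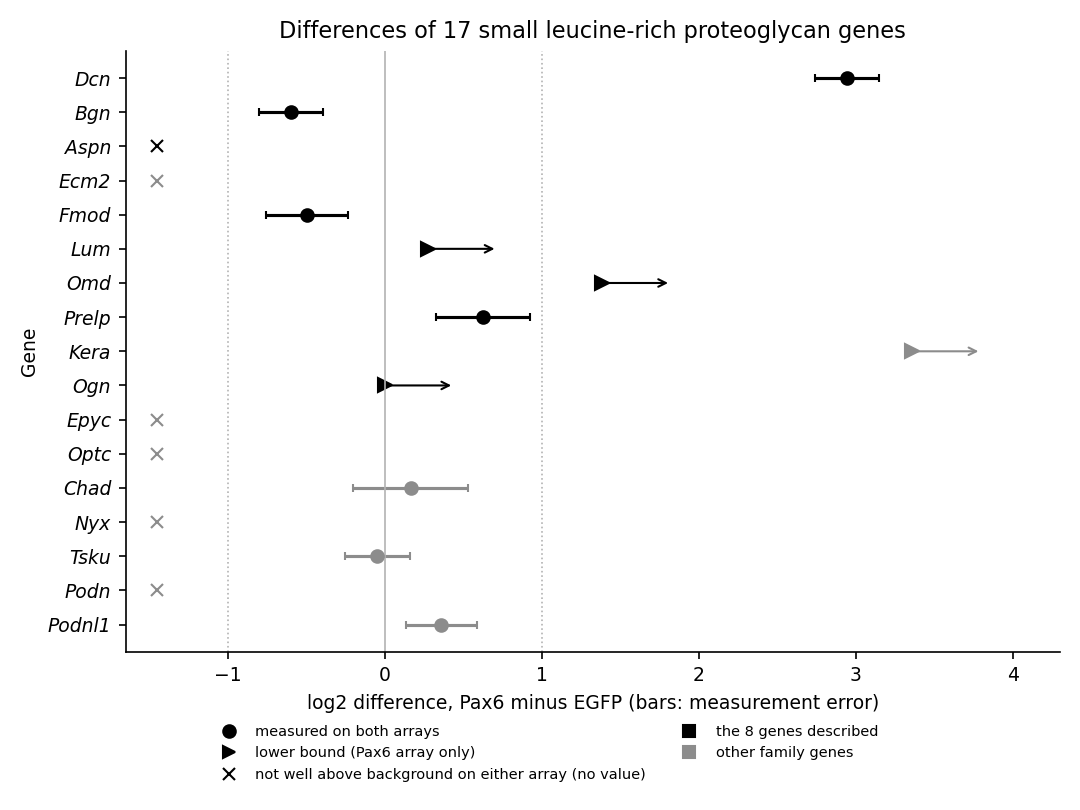
Difference (log2, Pax6 minus EGFP) of 17 family genes, with the 8 members in black and the other 9 in grey. Circles with measurement error were measured on both arrays, triangles with arrows are lower bounds (Ogn, with no fold, at 0) and crosses have no value; Dcn at 2.95, Kera from 3.36 and Omd from 1.38 lie beyond the dotted 2-fold line.

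In the chromosome 10 cluster the adjacent genes Dcn, Lum and Kera all read higher on the Pax6 array, Lum by a bound within 2-fold. Dcn is the gene the family was chosen by, and Lum and Kera were detected on the Pax6 array only and so could only be higher there, so nothing is read from their contrast with the genes around them. The 3 nearest protein-coding genes with a probe on either side of each cluster were compared, a choice made with the members' values known. Around Dcn, Lum and Kera these were Nudt4, Eea1 and Btg1 on one side and Ccer1, Atp2b1 and Poc1b on the other. The 5 of them above background lay between -0.30 and 0.15. Epyc, the last gene of the cluster, read 7.68 ± 2.15 on the Pax6 array and 2.21 ± 2.20 on the EGFP array with its brighter probe and was not well above background.

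In the chromosome 13 cluster, Omd and Ogn were seen on the Pax6 array only, and the probes named Ecm2 and Aspn on neither array. The probe described as asporin was well above background on both arrays. The 6 genes flanking this cluster lay between -0.32 and 0.31. In the chromosome 1 cluster, Prelp and Fmod differed in opposite directions, Optc was dim, and the 4 flanking genes above background lay between -0.93 (Btg2) and 0.45 (Chit1). Of all 18 flanking genes 15 were above background on both arrays, and 0 of these differed by 2-fold, where 4.00% of the genes measured on both arrays did. So few genes show little either way.

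**Figure D4:**
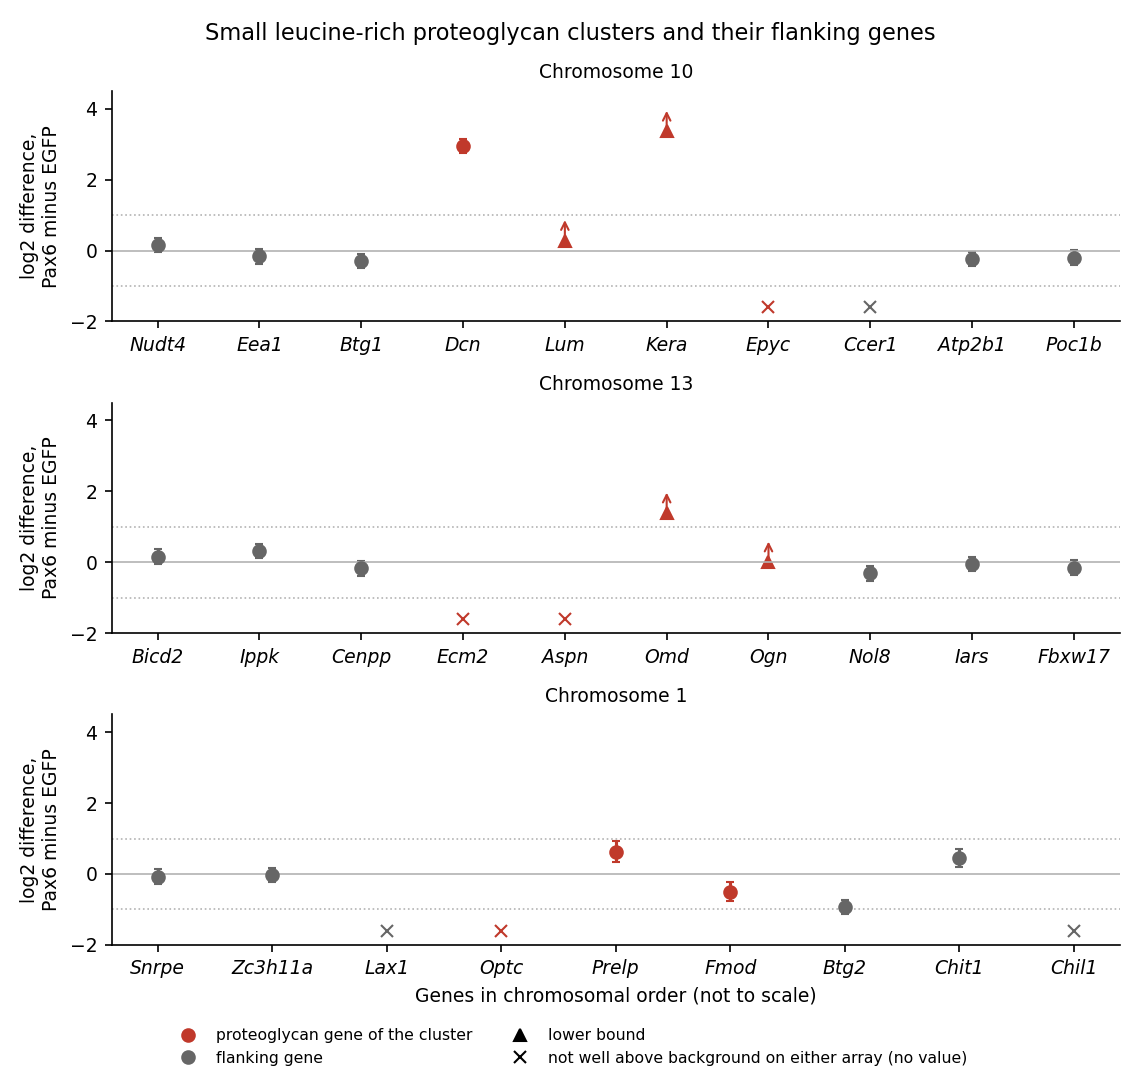
Difference (log2, Pax6 minus EGFP, with measurement error) of the genes of 3 clusters (red) and 3 flanking genes per side (grey), in chromosomal order. Triangles are lower bounds (Ogn, with no fold, at 0) and crosses have no value; Dcn lies at 2.95 and Kera has a bound of 3.36, and the flanking genes of chromosome 10 lie between -0.30 and 0.15.

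The genes whose levels on both arrays lay nearest to those of Dcn were found by Euclidean distance of the scaled log2 signals over these 2 arrays. They were Npy (a distance of 0.24), Cadps (0.49), Entpd1 (0.57) and Itga1 (0.68). Npy, the gene of neuropeptide Y, read 1397 on the Pax6 array and 177 on the EGFP array. The same search was not possible for Omd, which has no level on the EGFP array.

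Ligands and receptors of these proteoglycans mostly lay within 2-fold. Of 18 listed genes 17 had a probe and 16 were above background. Of these 2 were higher by at least 2-fold and 0 lower, with a median of 0.27. Over all genes seen on at least 1 array, 2.35% were at least 2-fold higher and 2.43% lower. These shares stand beside the counts of every list below. Egfr, a receptor that decorin binds and down-regulates in tumour cells, read 1714 on the Pax6 array and 613 on the EGFP array. Its difference of 1.26 ± 0.20 is 2.40-fold, and its 4 other measured probes lay between 0.99 and 1.41. Bmp4, a ligand that biglycan can bind, read 93.8 and 39.1 and was 2.07-fold higher on the Pax6 array, at 1.05 ± 0.23. Bmp4 differed by 0.53 with normexp background correction, and Egfr by 0.96 with the mean of its probes. Tgfb1 and Tgfb2, ligands that decorin holds in the matrix, differed by 0.77 ± 0.20 and -0.23 ± 0.21.

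Genes of the collagens that these proteins coat differed in both directions. Of 16 listed genes of fibrillar and binding matrix 14 were above background, 3 were higher by at least 2-fold and 2 lower, and the median was 0.21. Col3a1 read 13889 on the Pax6 array and 3152 on the EGFP array, 3.80-fold higher at 1.93 ± 0.20, with its second measured probe at 1.36 and the mean of its probes at 1.15. Col2a1, the collagen of cartilage, was 3.11-fold higher, but its second measured probe differed by 0.58 and the mean of its probes by 0.64. Col12a1, a collagen that lies on fibril surfaces and can bind decorin, read 52.8 and 4.03 and was at least 4.40-fold higher. It differed by 0.81 with normexp background correction.

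Both chains of type I collagen were lower on the Pax6 array, opposite to Dcn. Col1a2 read 46506 on the Pax6 array and 90871 on the EGFP array, a difference of -1.18 ± 0.20. Col1a1 read 94.0 and 407, a difference of -2.33 ± 0.21, with its second measured probe at -1.28. It differed by -1.29 with the mean of its probes and by -1.70 with normexp background correction. The differences of decorin and type III collagen thus had the opposite sign to those of type I collagen. Col5a1 and Col5a2, which start fibril formation, differed by 0.28 and 0.30, with a second measured Col5a1 probe at -0.08.

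The measured genes of the enzymes that build the chains of decorin and biglycan were all within 2-fold. Of 20 listed genes of the linker and of chondroitin or dermatan sulfate synthesis 17 had a probe and were measured on both arrays. Of these 0 were at least 2-fold different, where 4.00% of all genes measured on both arrays were. So few genes show little either way. The 17 genes ranged from -0.54 to 0.66 with a median of 0.21. Xylt1 and Xylt2, the transferases that start the chain, differed by 0.05 ± 0.23 and 0.09 ± 0.20.

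Among keratan sulfate genes 1 of 6 above background was at least 2-fold lower on the Pax6 array. Chst1, a sulfotransferase that adds sulfate to keratan sulfate, read 476 on the Pax6 array and 1335 on the EGFP array. Its difference was -1.70 ± 0.20, or 3.25-fold lower. Among genes of proteins that carry this chain, Omd, Lum and Kera have only bounds and Fmod differed by -0.50 ± 0.26. No contrast with Chst1 is read from them. B3gnt2 and B4galt1, which extend the chain, differed by 0.13 and 0.04, and the median of the 6 genes was 0.08.

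Of 12 listed proteases that can process these proteins 10 were above background, 1 was at least 2-fold higher and 0 were at least 2-fold lower on the Pax6 array, with a median of 0.19. Tll1, a relative of Bmp1, read 26.1 and 6.19 and was at least 2.17-fold higher, but differed by 0.28 with normexp background correction. Bmp1, the protease that cuts the biglycan precursor, differed by 0.21 with its brightest probe and by 1.27 with another, so its probes disagree. Pcolce, the enhancer of procollagen cleavage, differed by 0.31. Other proteoglycan genes had a median of -0.20 over 17 genes, with 0 at least 2-fold higher. Spock3, of the testican family, was at least 2.40-fold lower on the Pax6 array, though by -0.25 with normexp background correction. Acan and Agrn, the genes of aggrecan and agrin, differed by -0.22 and -0.40.

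**Figure D5:**
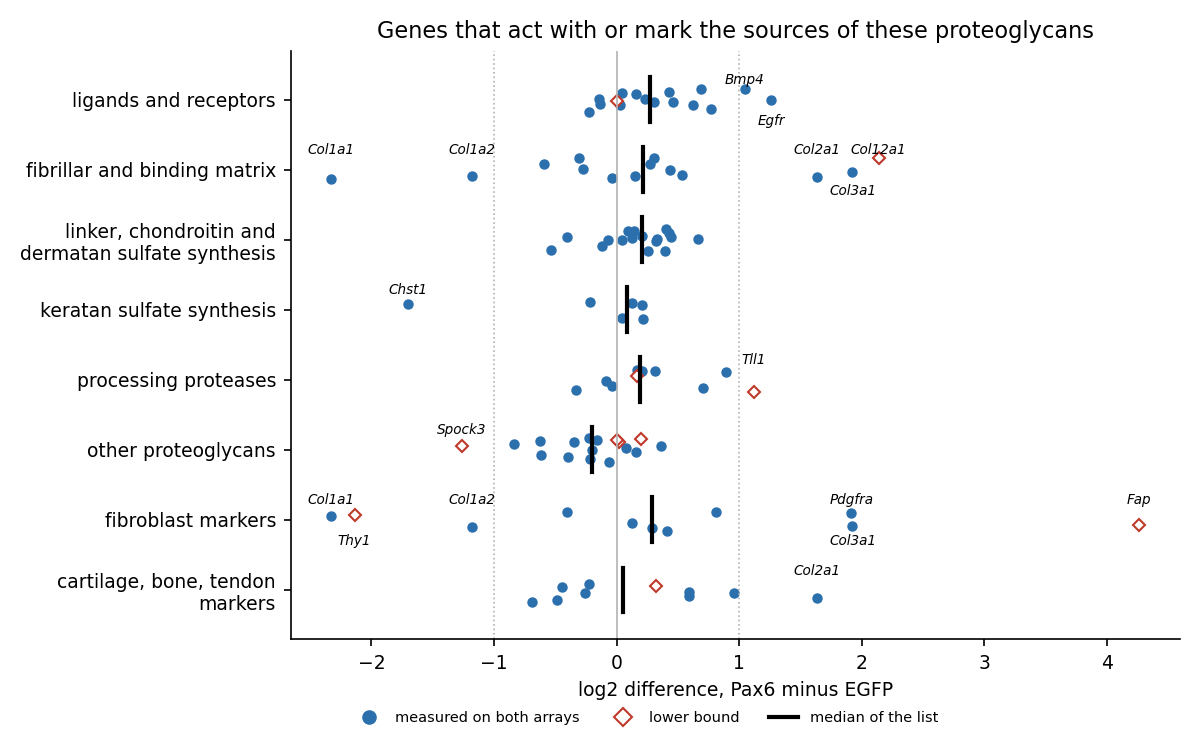
Difference (log2, Pax6 minus EGFP) of genes detected on 1 array or both, in 8 lists. Filled circles were measured on both arrays, open diamonds are bounds on the smallest size (at 0 where no fold is given), black bars are list medians and dotted lines mark 2-fold. Collagens and fibroblast markers spread to both sides, while all 17 linker and chain synthesis genes lie between -0.54 and 0.66. Of all genes measured on both arrays 4.00% differed by at least 2-fold.

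Markers of cell types that make these proteoglycans were examined beside them. Of 12 fibroblast markers, 10 were above background on the Pax6 array and 10 on the EGFP array, with summed signals of 420830 and 358471. S100a4 (231549 and 162949) and Vim (126293 and 99622) made most of these sums. Summed signals here and below are unscaled, where the 75th percentile was 991 on the Pax6 array and 854 on the EGFP array. No difference is read from them. Higher by at least 2-fold were 3 (Fap, at least 19.2-fold, Col3a1 and Pdgfra, 3.78-fold), and as much lower also 3 (Col1a1, Col1a2 and Thy1, at least 4.40-fold). The median was 0.29, Mfap5 was dim on both arrays, and Pdgfrb and Postn differed by -0.41 and 0.81. With normexp background correction Fap differed by 1.92, Pdgfra by 1.13 and Thy1 by -0.45. With the mean of a gene's probes Fap differed by 1.35, Pdgfra by 1.14 and Thy1 by -0.29.

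Of 12 cartilage, bone and tendon markers 10 were above background, 1 (Col2a1) was higher by at least 2-fold and 0 lower, with a median of 0.05 and summed signals of 36270 and 20943. Sox9 and Acan differed by 0.59 and -0.22, and Ibsp and Tnmd were dim on both arrays. Of 12 meningeal and perivascular fibroblast markers 10 were measured, with a median of -0.50 and summed signals of 9102 on the Pax6 array and 8468 on the EGFP array. Igf2 was 2.11-fold lower on the Pax6 array at -1.08, but by -0.54 with normexp background correction and -0.89 with the mean of its probes, and median scaling also brought it just within 2-fold. Foxc1 and Foxd1 differed by 0.53 and -0.66, with a second measured Foxd1 probe at -0.03, and Cemip and Lama1 were dim on both arrays.

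Mural cell markers had a median of -0.23 over 7 of 8 genes, with summed signals of 20768 and 19858. Tagln and Des were 3.36-fold and 2.90-fold lower on the Pax6 array (Des by -0.56 with normexp background correction). Acta2 and Myh11 differed by 0.12 and -0.23, with a second measured Acta2 probe at -0.39, and Kcnj8 was dim on both arrays. Endothelial markers had a median of -0.11 over 4 of 8 genes, with summed signals of 81.2 and 86.7. Tek and Cldn5 differed by 0.18 and -0.22, and Pecam1, Cdh5, Tie1 and Emcn were dim on both arrays. Of 8 microglia and blood markers 7 had a probe, and Hbb-b1 had none. Only Cd68 was above background, at 280 on the Pax6 array and 346 on the EGFP array. Neural progenitor markers had a median of 0.13 and differed both ways. Their summed signals were 130684 and 106329, mostly from Vim. Sox2 was 3.34-fold higher, Slc1a3 12.9-fold and Nes 3.17-fold lower on the Pax6 array, and Fabp7 and Prom1 differed by 0.47 and 0.35. Sox2 is also among the reprogramming factors under doxycycline control, and whether its probe reads that transgene was not tested. Slc1a3 differed by -1.79 with its second measured probe, by -2.53 with the mean of its probes and by -2.18 with normexp background correction. The part of these markers in the proteoglycan values was not tested.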

How the data were processed

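The members and gene lists were chosen with earlier results of these data known. RNA of 2 N31 lines was labelled with Cy3 after linear amplification, 1 array each, per the labels' protocols. The authors' deposited intensity values are processed signals of Agilent Feature Extraction 10.7.3.1, with background subtracted and spatial trends removed per array, per the file headers; arrays were not brought to a common scale. The deposited flags mark outliers and spots well above background (by 13 background SDs), per the file headers. The deposited series table held the same intensity values.

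Control and outlier spots were left out, which kept 43283 spots of 41168 probes. Signals were scaled to each array's 75th percentile (991 on the Pax6 array, 854 on the EGFP array) on the log2 scale, and replicate spots averaged. A gene took its brightest probe, and its accession gave the current symbol for 55.7% of probes. A gene not well above background on 1 array has a bound against the higher of its own dim signal and the lowest detected signal there (9.30 on the Pax6 array, 10.3 on the EGFP array, as geometric means over a probe's spots). Bounds enter counts and medians, with no fold counted as 0. Member coordinates are the array design's (mm7). Exons were not annotated here.

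All members are reported. From each other list the text names genes at least 2-fold different, up to 6, and the first 2 in list order within 2-fold and measured on both arrays, together with dim genes and genes with remarkable probes, range ends or flanking positions picked with their values in view. Other settings tried were median scaling, quantile normalization, normexp (offset 50, limma 3.58.1) with quantile normalization, the series table, mean of probes, stricter or no filter, and a 3-fold rule. Under normexp, values of dim probes were used as measured. The steps were tested on simulated data.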

Additional observations from a re-analysis of the deposited data

How the results depend on the processing

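With 1 array per group nothing could be left out, and no paired analysis was possible because each group has 1 sample. Dcn stayed above 2-fold under every alternative that kept the 2-fold rule, between 2.12 (mean of probes) and 3.03 (median scaling), with 2.55 under normexp. The series table and the filter settings could not move its value, since they leave its brightest probe unchanged. The members at least 2-fold higher numbered 1 with normexp, with the 3-fold rule and with detection required on both arrays, against 2, and 3 with no filter; 0 were lower throughout. Without a filter the members' median was 0.78, since dim values then count as measured (Omd 3.02, Ogn 2.08, Lum 0.94). Over all genes, those at least 2-fold higher and lower on the Pax6 array were 452 and 467, against 177 and 109 with normexp, 1307 and 1232 with no filter, and 165 and 103 at 3-fold. The higher share of these calls was 49.2%, but 59.3% with median scaling, 61.9% with normexp and 61.6% at 3-fold. Signals of Aspn, Ogn, Lum, Omd and Fmod near background limit what can be said of them.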
